A study of Danio rerio with 26 samples.

Results

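The comparison described here is between 2 concentrations of rotenone in the skin of 1-year-old male zebrafish of strain AB JxTu, in the fish whose title numbers are low. The 37.5 nM group held the 4 fish titled 173, 174, 175 and 177, and the 3.75 nM group held the 4 fish titled 164, 165, 166 and 167, so 8 of the 26 fish of the series entered it. They are called 37.5 nM fish 1 to 4 and 3.75 nM fish 1 to 4, in that order. All 8 received rotenone and no untreated fish was compared, so each difference is between a higher and a lower concentration and not between treated and untreated skin. The 10 other 1-year fish, 5 at each concentration, carry high title numbers (198 to 202 at 37.5 nM, 189 to 193 at 3.75 nM) and are used only to show where the low-number fish differ from them. The labels do not say what the number runs stand for, and they give neither the duration of the treatment nor the hour of sampling. Concentration coincides here with the deposited table and with separate ranges of fish numbers, and these cannot be told apart from it. Each library was made from 1 fish, and p-values measure the spread between these fish.

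Rotenone blocks complex I of the mitochondrial respiratory chain, which passes electrons from NADH to ubiquinone. Cells short of respiratory capacity can respond through chaperones, the unfolded protein responses of the endoplasmic reticulum and mitochondria, and changes in protein synthesis, for which ribosomes are assembled in the nucleolus. Zebrafish skin holds keratinocytes, mucous cells, ionocytes, pigment cells, scale-forming bone cells, dermal fibroblasts and immune cells, and its cells carry circadian clocks that light can set directly.

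Library totals were 25968091 to 31045150 counts at 37.5 nM and 26425924 to 26793608 at 3.75 nM. Levels are in CPM (counts scaled to a common library size), log2 fold changes are 37.5 over 3.75 nM with their standard error (SE), and a gene was called at an adjusted p under 0.05 in edgeR's quasi-likelihood test with Benjamini-Hochberg adjustment over all genes tested. The keratinocyte gene krt5 was abundant in all 8 fish (21126 to 40958 CPM). In the principal components of the 8 fish, the first component (39.1% of the variance) separated the concentrations. Over all 18 1-year fish, the 3.75 nM low-number fish stood apart on the second component (16.3% of the variance), at 32.7 to 80.0 against at most 16.6 in every other fish. Skeletal muscle transcripts also varied: the summed level of 54 muscle genes was 15885, 16376, 9725 and 7647 CPM in 37.5 nM fish 1 to 4 and 21324, 13569.7, 59808 and 17863 CPM in 3.75 nM fish 1 to 4. The groups overlapped, 3.75 nM fish 3 was far above the rest, and no muscle gene of the list was without counts in all 8 fish. Counts for the gene lists below are also given with the mean muscle level as a covariate. In bulk tissue, fewer cells of a type and less RNA per cell cannot be told apart.

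**Figure D1:**
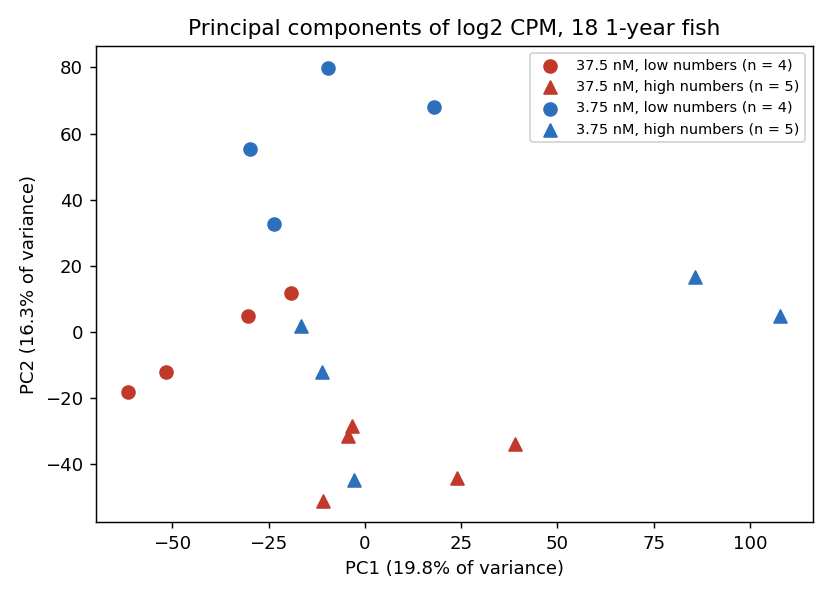
First and second principal components of log2 CPM in the 18 1-year fish, with colour for concentration and shape for low or high title numbers. The 4 low-number fish at 3.75 nM lie at 32.7 to 80.0 on the second component, above all 14 other fish.

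Between the low-number groups, 5024 of 18820 genes tested were called (26.7%). Of these, 2430 were higher at 37.5 nM (12.9% of genes tested) and 2594 were lower (13.8%), with 775 higher and 753 lower by more than 2-fold. The median log2 fold change over all genes tested was 0.03. In 4654 of the called genes (92.6%) the groups did not overlap, against 29.8% of all genes tested. With the muscle level as a covariate 2673 genes were called, of which 36.0% were higher, against 48.4% without it. That is 961 higher and 1712 lower, against 2430 and 2594 without the covariate. Calls thus became fewer over all genes. List counts given below with the covariate are to be read against these smaller numbers, not against 12.9% and 13.8%.

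The 12 largest rises named by rule included genes of ubiquitin ligases. FBXO32 (atrogin-1), a ubiquitin ligase subunit of muscle atrophy, was at 20.1, 51.3, 48.9 and 27.7 CPM in 37.5 nM fish 1 to 4 and at 6.23, 3.56, 2.1 and 3.36 CPM in 3.75 nM fish 1 to 4. The groups did not overlap, and FBXO32 rose by 3.28 ± 0.41 on the log2 scale (adjusted p = 0.000834). The ubiquitin ligase gene trim63a, whose mammalian counterpart MuRF1 acts in the same process, rose by 2.74 ± 0.47 (adjusted p = 0.00371), from 3.17 ± 0.439 CPM to 21.3 ± 14.7 CPM (SD, n = 4 each). KLHL24 (ENSDARG00000008275), a substrate adaptor of a ubiquitin ligase, was at 210, 304, 332 and 237 CPM at 37.5 nM and at 27.3, 32.2, 14.7 and 26.7 CPM at 3.75 nM. Its change of 3.42 ± 0.26 was the largest rise among the genes named by rule, and every fish at 37.5 nM was above every fish at 3.75 nM (adjusted p = 0.000128).

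eif4ebp3, of the family that binds the cap-binding factor eIF4E and restrains translation, was at 30.1, 34.9, 31.2 and 42.9 CPM at 37.5 nM and at 7.72, 6.67, 6.60 and 4.93 CPM at 3.75 nM. The change was 2.42 ± 0.17 (adjusted p = 0.000107), with no overlap. HBP1, a transcriptional repressor that slows cell cycle entry, rose by 2.51 ± 0.12 (adjusted p = 3.48e-05), from 11.2 ± 1.51 to 63.6 ± 4.18 CPM (SD, n = 4 each). The p53 target bbc3 (Puma), which promotes apoptosis, rose by 2.67 ± 0.30 (adjusted p = 0.000424). FBXO25, an F-box gene related to FBXO32, rose by 2.60 ± 0.27, and SLC25A32 (ENSDARG00000089791), of the mitochondrial carrier family, by 2.54 ± 0.18. Of the other 4 genes among the 12 largest rises, apol, GRIN1 (ENSDARG00000027828) and CEL changed by 2.83, 2.74 and 2.31 and were not called with the muscle covariate. The fourth, plekhs1.1, changed by 2.27 and was called neither with that covariate nor in the fit of all 18 fish.

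**Figure D2:**
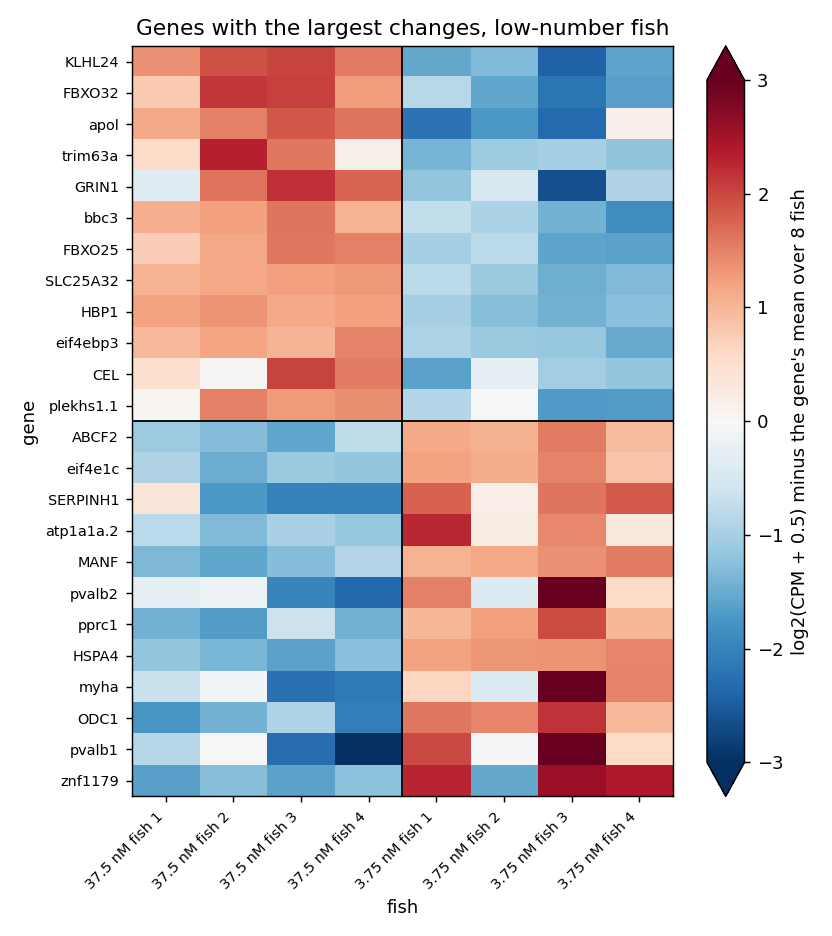
Level of the 24 genes with the largest called changes (rows, 12 in each direction) in the 8 fish (columns), as log2(CPM + 0.5) minus the gene's mean, with the colour scale ending at 3 on either side. The 12 upper genes have the higher mean at 37.5 nM and the 12 lower genes at 3.75 nM, while the muscle genes pvalb1, pvalb2 and myha are highest in 3.75 nM fish 3.

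The 12 largest falls included ODC1, pprc1 and eif4e1c. ODC1, the rate-limiting enzyme of polyamine synthesis, was at 19.98, 25.2, 35.9 and 15.9 CPM at 37.5 nM and at 207, 191, 310 and 136 CPM at 3.75 nM. The ranges lay far apart and ODC1 fell by 3.12 ± 0.33 on the log2 scale (adjusted p = 0.000359). pprc1, a coactivator related to PGC-1 that acts on nuclear genes of mitochondrial function, fell by 2.68 ± 0.31 (adjusted p = 0.000557). eif4e1c, of the cap-binding eIF4E family, fell by 2.37 ± 0.17, and ABCF2 (ENSDARG00000038785), an ATP-binding cassette protein without membrane domains, by 2.36 ± 0.20. HSPA4 (ENSDARG00000004754) and MANF, also among the 12, are described with the chaperones.

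The other 6 of the 12 largest falls depended on single fish or on the covariate. The muscle genes pvalb1 and pvalb2 (parvalbumins, which buffer calcium) and myha (a myosin heavy chain) changed by -3.36, -2.62 and -2.96, and without 3.75 nM fish 3 by -2.22, -1.67 and -1.8, where none of the 3 was called. pvalb1 was at 788, 190, 2565 and 305 CPM in the 3.75 nM fish and at 111, 200, 40.2 and 23.6 CPM in the 37.5 nM fish, so the groups overlapped. znf1179 (-3.76) and atp1a1a.2 (-2.55), a sodium pump subunit of ionocytes, were not called with the muscle covariate. znf1179 was at 31.4, 38.2 and 34.3 CPM in 3.75 nM fish 1, 3 and 4 but at 1.74 CPM in fish 2, within the range of the 37.5 nM fish. SERPINH1 (ENSDARG00000019949), a collagen chaperone, changed by -2.48 and was not called in 6 of the 8 comparisons that left out 1 fish. The second SERPINH1 gene (ENSDARG00000075954), which is not among the 12, fell by 1.05 ± 0.15 (edgeR, adjusted p = 0.00152). It was also called with any 1 fish left out and with the muscle covariate.

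Many chaperone genes were lower at 37.5 nM. Of 21 genes for Hsp90 proteins and their co-chaperones, 15 fell (71.4%, against 13.8% of all genes) and 0 rose. Of 46 genes in the list of Hsp70, Hsp40 and small heat shock proteins, 23 fell (50%) and 0 rose. This second list also holds HSPD1, HSPE1, BAG3, HSPBP1 and both SERPINH1 genes, which were among those that fell. Median log2 fold changes of the lists were -0.85 and -0.82, against 0.03 for all genes. With the muscle covariate 14 and 17 fell, and 1 of the second list rose. HSPA4 (ENSDARG00000004754), a nucleotide exchange factor of the Hsp70 cycle, was at 47.4, 40.3, 34.6 and 44.3 CPM at 37.5 nM and at 246, 267, 271 and 295 CPM at 3.75 nM. It fell by 2.69 ± 0.12 (adjusted p = 3.48e-05) without overlap, and the second HSPA4 gene (ENSDARG00000018989) fell by 0.81 ± 0.08.

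The stress-inducible hsp90aa1.1 fell by 2.06 ± 0.32 (adjusted p = 0.00216) and BAG3, which links Hsp70 to selective autophagy, by 2.00 ± 0.23 (adjusted p = 0.000529). The co-chaperones PTGES3 (ENSDARG00000089626), STIP1 and AHSA1, which steer clients through the Hsp90 cycle, fell by 1.41, 1.14 and 1.06. The abundant constitutive genes gave other values: HSP90AB1 was at 4045 to 4736 CPM at 37.5 nM and 3132 to 3886 CPM at 3.75 nM (adjusted p = 0.11), and HSPA8 (ENSDARG00000068992) at 3708 to 4167 CPM and 3270 to 4567 CPM (adjusted p = 0.897). The second HSPA8 gene (ENSDARG00000037403), at a mean of 4.12 CPM at 37.5 nM and 9.72 CPM at 3.75 nM, fell by 1.24 ± 0.27 (edgeR, adjusted p = 0.0108). Its adjusted p reached 0.0791 under the alternatives. The low-level hsp70.3 fell by 2.69 ± 0.34 and hsp70.1 by 1.57 ± 0.35, but hsp70.1, hsp70.3, hspa1b and hsp70l are near-identical copies between which reads can be split, so their separate values are uncertain. hsf1, the heat shock transcription factor, was at 14.7 ± 1.7 CPM at 37.5 nM and 14.7 ± 3.2 CPM at 3.75 nM (SD, n = 4 each; adjusted p = 0.996).

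**Figure D3:**
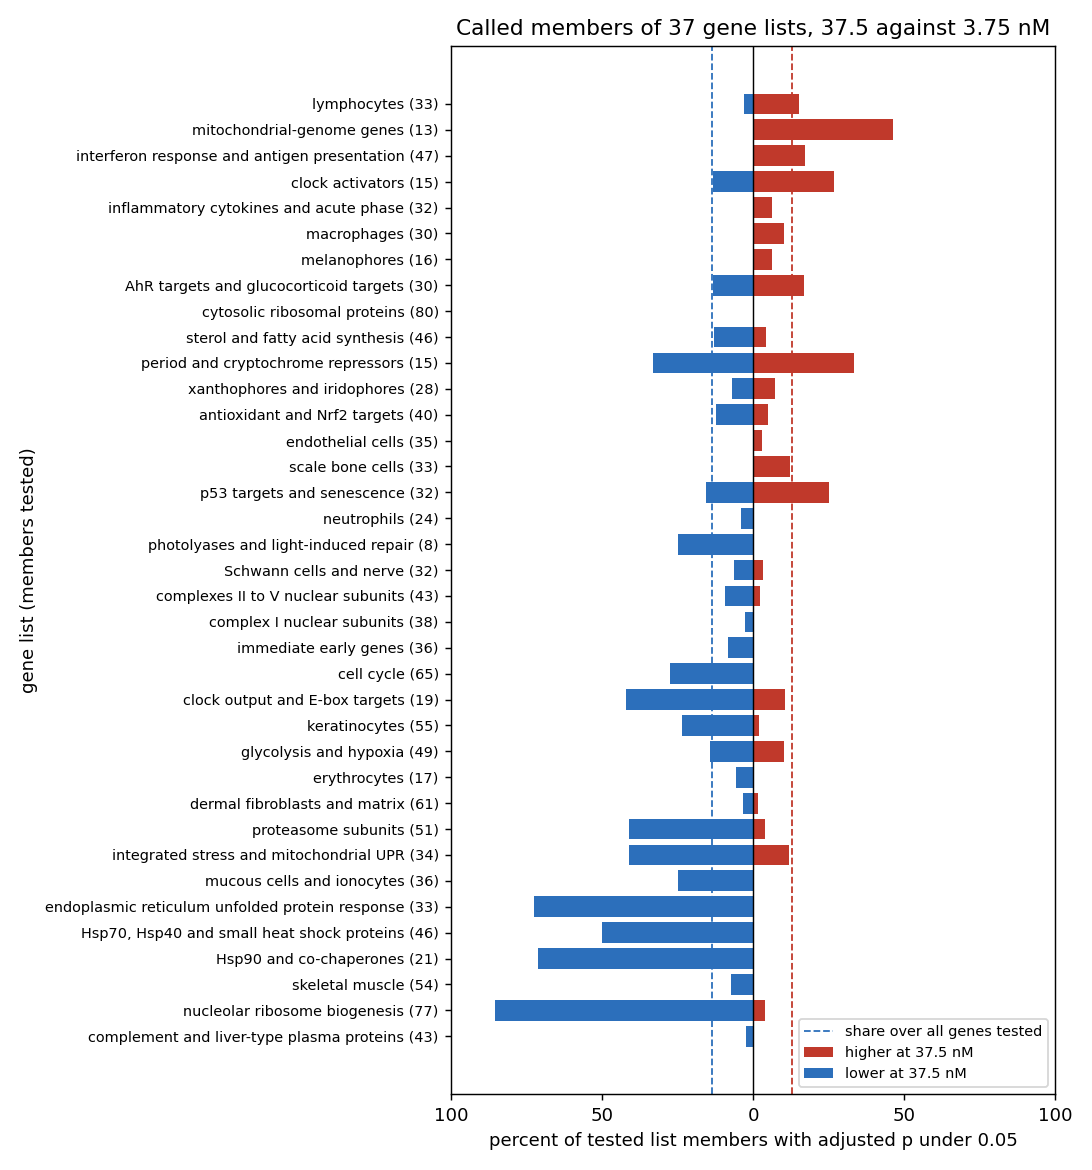
Percent of the tested members of 37 gene lists that were called higher (right) or lower (left) at 37.5 nM, ordered by the list's median log2 fold change, with the number tested in brackets and dashed lines at the shares over all genes (12.9% and 13.8%). Nucleolar, chaperone and endoplasmic reticulum lists reach far left of the dashed line, while cytosolic ribosomal proteins have no called member.

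The unfolded protein response of the endoplasmic reticulum, which supplies chaperones and folding enzymes for secreted proteins, was lower in most members. Of 33 genes 24 fell (72.7%, against 13.8% of all genes) and 0 rose, with a median of -0.72, and 24 fell with the muscle covariate. HSPA5 (BiP), its central chaperone, was at 189, 178, 200 and 203 CPM at 37.5 nM and at 615, 729, 1243 and 901 CPM at 3.75 nM. The lowest 3.75 nM fish was above all 37.5 nM fish, and HSPA5 fell by 2.18 ± 0.21 (adjusted p = 0.000259). MANF, a secreted protein induced by this response, was at 19.9, 17.1, 20.6 and 27.7 CPM against 106, 115, 134 and 149 CPM and fell by 2.56 ± 0.18 (adjusted p = 0.000104). HSP90B1, the Hsp90 of the same compartment, fell by 1.77 ± 0.21, CRELD2 by 2.1 ± 0.12 and SDF2L1 by 1.55 ± 0.13.

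Of 34 genes of the integrated stress response and the mitochondrial unfolded protein response, 14 fell (41.2%) and 4 rose (11.8%). The shares of all genes were 13.8% and 12.9%, and the list median was -0.39. Under the muscle covariate 11 fell and 2 rose. The mitochondrial proteases LONP1 and CLPP fell by 1.8 ± 0.14 and 1.16 ± 0.10. The mitochondrial chaperonin HSPD1, counted above with the heat shock lists, fell by 1.8 ± 0.13 (edgeR, adjusted p = 0.000107). SARS1, the seryl-tRNA synthetase, fell by 1.32 ± 0.11. Both PSAT1, of serine synthesis, and atf4b, a transcription factor of the response, fell less, by 0.66 and 0.35, and neither was called with the muscle covariate or in the fit of all 18 fish.

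Nucleolar ribosome biogenesis held the largest share of lower members among the 37 lists. Of 77 genes 66 fell (85.7%, against 13.8% of all genes) and 3 rose, with a median of -1.04. With the muscle covariate 56 fell and 1 rose. RRS1, needed for the large ribosomal subunit, was at 9.78, 9.89, 9.64 and 12.3 CPM at 37.5 nM and at 41.9, 44.6, 65.8 and 45 CPM at 3.75 nM. The groups did not overlap and RRS1 fell by 2.25 ± 0.17 (adjusted p = 0.000118). DKC1, the pseudouridine synthase of small nucleolar RNA particles, fell by 2.13 ± 0.14, and SNU13 (ENSDARG00000023299), a protein of other such particles, by 1.82 ± 0.12. The 3 members that rose, named after their values were seen, were DDX21 (0.81), nop53 (0.72) and GTPBP4 (0.62). The ribosome's own proteins differed from this: of 80 cytosolic ribosomal protein genes 0 were called in edgeR's test, with or without the muscle covariate, and their median was 0.14.

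Of 51 proteasome genes, which encode the protease that degrades ubiquitin-tagged proteins, 21 fell (41.2%, against 13.8% of all genes) and 2 rose. Their median was -0.38. PSMD11 (ENSDARG00000005134), a lid subunit, was at 31.9, 35.0, 37.9 and 36.7 CPM at 37.5 nM and at 69.5, 69.2, 69.9 and 69.3 CPM at 3.75 nM. It fell by 0.97 ± 0.08 (adjusted p = 0.000148), and the activator subunit PSME3 by 1.52 ± 0.09. Without 37.5 nM fish 2 the number that fell was 12, without 3.75 nM fish 2 it was 13, and with any other fish left out it was at most 27. Adding the muscle covariate gave 28 that fell and 1 that rose.

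Of 65 cell cycle genes 18 fell (27.7%, against 13.8% of all genes) and 0 rose, with a median of -0.18. The number that fell was 13 with the muscle covariate and 9 in the fit of all 18 fish. Leaving out 1 fish gave medians of -0.34 to 0.20, and 4 of the genes rose without 3.75 nM fish 1. MCM2, MCM4 and ORC1, which license replication origins, fell by 1.83 ± 0.24, 1.56 ± 0.21 and 1.63 ± 0.22. MCM2 was at 10.5, 13.9, 17.1 and 13.0 CPM at 37.5 nM and at 73.0, 39.6, 42.7 and 38.65 CPM at 3.75 nM, without overlap. The proliferation marker mki67 was at 23.1 ± 3.5 CPM and 21.0 ± 7.2 CPM (SD, n = 4 each; adjusted p = 0.708). Of 32 p53 target and senescence genes, 8 rose (25.0%, against 12.9% of all genes) and 5 fell (15.6%, near the share of all genes). Leaving out 1 fish gave 4 to 9 rises and 2 to 5 falls, lowest for rises without fish 3 of either group and for falls without 37.5 nM fish 2 or 3. Under the covariate 3 rose and 3 fell, and in the fit of all 18 fish 5 rose and 1 fell. TP53INP1 and SESN1, which act in autophagy and in restraint of mTORC1, rose by 1.45 ± 0.20 and 1.27 ± 0.22, while cdkn1a, the p53-induced cell cycle inhibitor, was at 1.28 ± 0.46 and 1.99 ± 1.0 CPM (SD, n = 4 each; adjusted p = 0.287).

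Of 38 nuclear genes for subunits of complex I, the target of rotenone, 1 was called (2.63%, against 26.7% of all genes). This gene, ndufab1b, fell by 0.51 ± 0.12 (adjusted p = 0.0153), and was not called with the muscle covariate or in the fit of all 18 fish. NDUFS1 and NDUFV1, core subunits, were at 202 ± 15.4 and 353 ± 25.1 CPM at 37.5 nM and at 219 ± 6.47 and 308 ± 21.8 CPM at 3.75 nM (SD, n = 4 each; adjusted p = 0.371 and 0.183). Of 43 nuclear genes for complexes II to V, 4 fell (9.30%, below the share of all genes) and 1 rose. Adding the covariate gave 1 that fell and 3 that rose. The genes of the mitochondrial genome were higher: 6 of 13 rose (46.2%, against 12.9% of all genes) and 0 fell, with a median of 0.52. In the high-number fish the median was -0.12. The list mean was 11.73 log2 CPM at 37.5 nM in low-number and in high-number fish. At 3.75 nM it was 11.25 in the low-number and 11.81 in the high-number fish. MT-CO1, of cytochrome c oxidase, was at 41908, 41526, 31513 and 28476 CPM at 37.5 nM and at 20591, 25717, 19093 and 16066 CPM at 3.75 nM, a rise of 0.82 ± 0.20 (adjusted p = 0.0157) without overlap. In edgeR's test 0 of the 13 genes were called without 3.75 nM fish 3 or without 37.5 nM fish 2, 1 without 37.5 nM fish 1 and 2 without 3.75 nM fish 4, while 4 rose with the muscle covariate.

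Of 40 antioxidant genes and targets of Nrf2, the factor that responds to oxidative stress, 5 fell (12.5%, near the share of all genes) and 2 rose. With that covariate 4 fell and 0 rose, and 2 fell without 37.5 nM fish 2 and 3 without 37.5 nM fish 3. In edgeR's test 0 or 1 rose when any 37.5 nM fish was left out, 0 without 3.75 nM fish 3 or 4, and 4 without 3.75 nM fish 2. TXNRD3, a thioredoxin reductase, fell by 0.95 ± 0.08 (adjusted p = 0.000167), from 217 ± 12.2 to 112 ± 3.05 CPM (SD, n = 4 each). HMOX1, the heme oxygenase, was at 11.5, 18.4, 30.8 and 18 CPM at 37.5 nM and at 9.95, 17.3, 8.70 and 7.44 CPM at 3.75 nM, with overlap (adjusted p = 0.1). Of 49 genes of glycolysis and the hypoxia response 7 fell (14.3%) and 5 rose, shares near those of all genes. Given the muscle covariate, 7 fell and 6 rose, and 4 fell without 37.5 nM fish 3 or 3.75 nM fish 4. The hexokinases HK2 and HK1, which start glycolysis, fell by 1.27 ± 0.13 and 1.02 ± 0.10, and BNIP3, a receptor for removal of mitochondria, rose by 1.82 ± 0.14 (adjusted p = 0.000118).

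The circadian clock rests on the activators Clock and Bmal, which drive the period, cryptochrome and Rev-erb (NR1D) genes that repress them in turn. Of 15 period and cryptochrome list genes 5 fell and 5 rose (33.3% each, against 13.8% and 12.9% of all genes). Under the covariate 1 fell and 3 rose, and 3 rose without 37.5 nM fish 2 or 3 or 3.75 nM fish 1, 3 or 4. Of 19 output and E-box target genes 8 fell (42.1%) and 2 rose (10.5%), with 5 and 1 under the covariate and also in the fit of all 18 fish. A single one of them rose without 3.75 nM fish 1, 3 or 4. Of 15 activator genes 4 rose (26.7%) and 2 fell (13.3%), against 1 and 0 with the covariate. In edgeR's test 0 activators fell without 37.5 nM fish 2, and 1 fell without fish 3 or 4 of either group. PER1 (ENSDARG00000012499) was at 20.9, 21.2, 22.7 and 17.1 CPM at 37.5 nM and at 55.8, 64.5, 58.6 and 56.4 CPM at 3.75 nM. It fell by 1.52 ± 0.11 (adjusted p = 0.000107) without overlap. NR1D1 (Rev-erb alpha) was at 2.55, 4.23, 2.62 and 3.03 CPM against 18.2, 18.9, 14.2 and 11.2 CPM and fell by 2.33 ± 0.23 (adjusted p = 0.000278).

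Other output genes fell as well: ciartb, a repressor of the clock, by 1.84 ± 0.19, and the PAR bZIP factors dbpa and dbpb by 1.66 ± 0.24 and 0.70 ± 0.13. BMAL1 (ENSDARG00000035732) rose by 1.21 ± 0.20 (adjusted p = 0.00261), from 6.07 ± 1.66 to 14 ± 1.42 CPM (SD, n = 4 each). cry3a rose by 0.85 ± 0.09 and the PAR bZIP gene hlfa by 0.64 ± 0.15. CLOCK (ENSDARG00000011703) changed by 1.74 ± 0.38 and PER2, which light induces in zebrafish, by -0.56 ± 0.13, and neither was called with the muscle covariate. The other genes named BMAL1 (ENSDARG00000006791; 0.34) and CLOCK (ENSDARG00000003631) were not called. The other PER1 gene (ENSDARG00000056885) fell by 1.39 ± 0.42 (edgeR, adjusted p = 0.0389). Against the 4 activators that rose, npas2 and rorab fell by 1.03 ± 0.28 and 0.49 ± 0.13 (edgeR, adjusted p = 0.0244 and 0.0215). PER3 was at 30.8 to 58.9 CPM and 52.8 to 65.0 CPM (adjusted p = 0.356), and nfil3-5, whose mammalian relative represses PAR bZIP targets, had a log2 fold change of 1.23 ± 0.40 and missed the threshold (adjusted p = 0.0503). cry5, the 6-4 photolyase that repairs light damage, fell by 1.01 ± 0.15 (adjusted p = 0.00158).

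**Figure D4:**
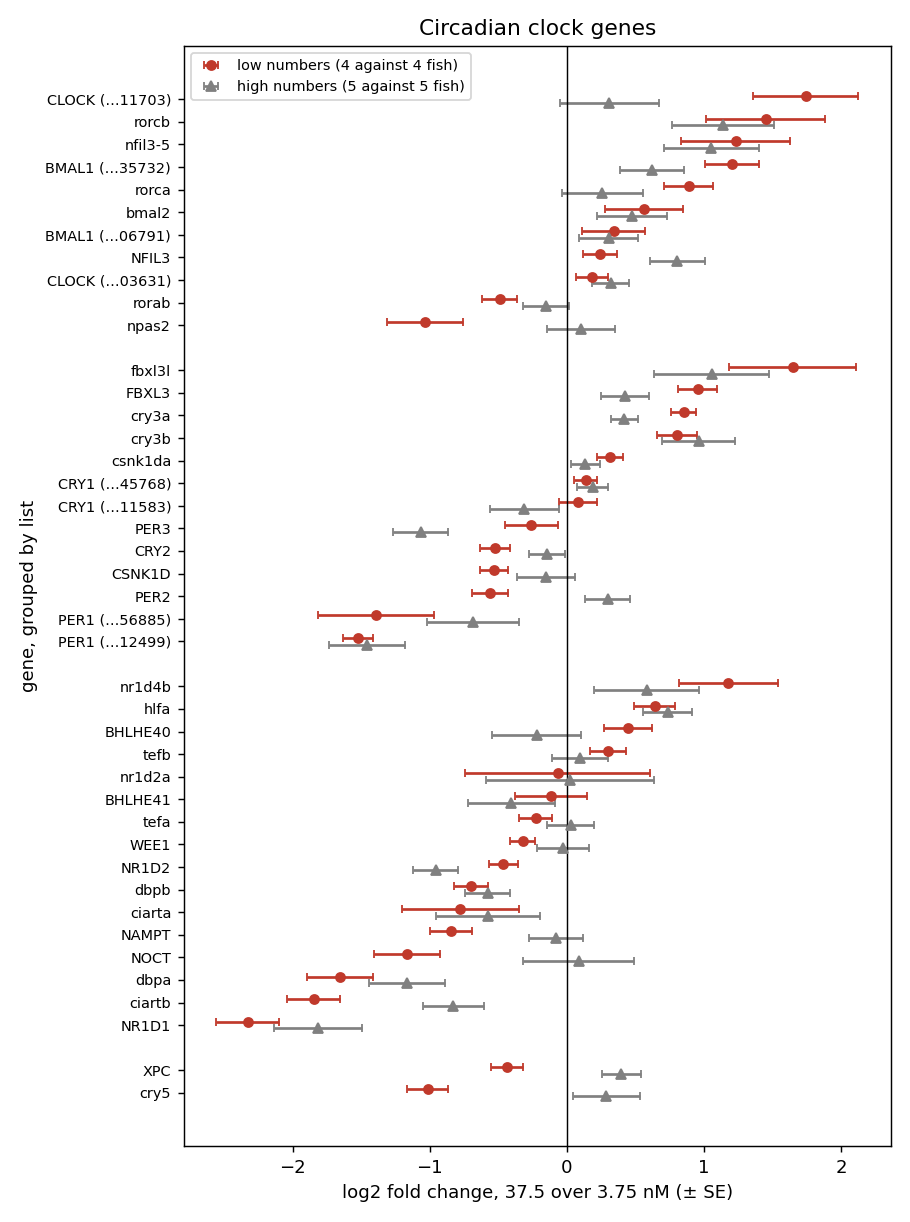
Log2 fold change (37.5 over 3.75 nM, with SE) of clock genes grouped by list, in the low-number fish (circles) and the high-number fish (triangles), with the last digits of the Ensembl identifier where genes share a symbol. PER1 (…12499) lies at -1.52 and -1.46 and NR1D1 at -2.33 and -1.82, while cry5 lies at -1.01 and 0.29.

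Keratinocyte genes were lower more often than higher: of 55 genes 13 fell (23.6%, against 13.8% of all genes) and 1 rose (1.82%). Their median was -0.28, and 5 fell with the muscle covariate. krt17 was at 361, 426, 385 and 534 CPM at 37.5 nM and at 1508, 1070, 1265 and 1231 CPM at 3.75 nM, a fall of 1.57 ± 0.16 (adjusted p = 0.00032) without overlap. krt18a.1 fell by 1.00 ± 0.12 and krt93 by 2.97 ± 0.49, while krt5 was at 28620 ± 5970 and 35259 ± 4329 CPM (SD, n = 4 each; adjusted p = 0.259). Of 36 genes of mucous cells and ionocytes 9 fell (25.0%) and 0 rose, and 1 fell with the muscle covariate. Without 37.5 nM fish 3 the number was 4, and without 37.5 nM fish 2 or 3.75 nM fish 3 it was 5. AGR2, a disulfide isomerase of mucus-producing cells, fell by 1.36 ± 0.20 (adjusted p = 0.00165).

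The interferon and lymphocyte lists had more higher than lower members, at shares near that of all genes. Of 47 interferon response and antigen presentation genes 8 rose (17.0%, against 12.9% of all genes) and 0 fell, with a median of 0.47. With the muscle covariate 3 rose and 1 fell. Without 3.75 nM fish 2, 15 rose, and 4 or 5 rose without any other single fish except 37.5 nM fish 1. stat2, a transcription factor of the interferon response, was at 204, 243, 264 and 219 CPM at 37.5 nM and at 131, 110, 80.4 and 82.5 CPM at 3.75 nM, a rise of 1.2 ± 0.17 (adjusted p = 0.00144) without overlap. ciita, the activator of MHC class II genes, rose by 1.12 ± 0.21. Of 33 lymphocyte genes 5 rose (15.2%) and 1 fell, with a median of 0.54. Their summed level was 465.7 to 603.5 CPM at 37.5 nM and 295.3 to 358.6 CPM at 3.75 nM, and 1 rose with the muscle covariate. RUNX3, a transcription factor of lymphocytes, rose by 1.27 ± 0.18 (adjusted p = 0.00115). Of 54 skeletal muscle genes 4 fell (7.41%, below the 13.8% of all genes) and 0 rose although the median was -1.03. The number that fell was 15 without 3.75 nM fish 2 and 0 without 37.5 nM fish 3 or 4. Of 43 complement and liver-type plasma protein genes 1 fell (2.33%), with a median of -1.24, and 6 fell without 3.75 nM fish 4. In edgeR's test with the muscle covariate 0 were called.

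The concentration difference was not the same in the high-number fish. There, 0 of 19952 genes were called (0%) in the edgeR fit of all 18 fish, with 1776 at an unadjusted p under 0.05, and 0 of 18929 were called when those 10 fish were fitted alone, with 995 at an unadjusted p under 0.05. The high-number 3.75 nM fish were far apart. On the first component of the 18 fish (19.8% of the variance), those titled 190 and 192 lay at 107.8 and 85.8, and every other fish at 39.1 or below. This spread limits what the absence of calls can show. Testing the difference between the effects called 1140 of 19952 genes (5.71%), of which 479 (2.4%) had the higher and 661 (3.31%) the lower value in the low-number fish. Of these, 1109 were also called in the low-number comparison. Leaving out 1 of the 18 fish gave 603 to 1745 genes. The genes called in the low-number fish had the same sign in the high-number fish in 72.1% of cases. That share was not determined over all genes. Over the 19952 genes, the low-number and high-number log2 fold changes had a Pearson correlation of 0.25. In the called genes the median change in the called direction was 0.76 in the low-number and 0.10 in the high-number fish. Choosing genes by the low-number fish favours a larger value there.

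Comparing low with high numbers at 1 concentration, 3850 genes were called at 3.75 nM (19.3%) and 342 at 37.5 nM (1.71%). These contrasts share fish with the concentration contrasts. The median absolute distance of the genes called in the low-number comparison was 0.51 log2 units between the 3.75 nM runs and 0.25 between the 37.5 nM runs. It was 0.15 between the concentrations in the high-number fish, which took no part in choosing these genes. The choice by the low-number fish favours larger values in both distances between runs.

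The lists differed in how they fared. The effect differed in 36 of 77 nucleolar genes and 16 of 33 genes of the endoplasmic reticulum response, against 5.71% of all genes. All of these were lower in the low-number fish, and the list medians in the high-number fish were -0.26 and -0.06. Other lists had smaller shares: 6 of 21 Hsp90 and 5 of 46 Hsp70 list genes, with high-number medians of -0.23 and -0.37. Among proteasome genes the effect differed in 3 of 51, with a high-number median of -0.14. For cell cycle genes it differed in 1 of 65, and the median was -0.35 in the high-number and -0.18 in the low-number fish. HSPA5 was at 181 to 340 CPM in the 3.75 nM and 129 to 310 CPM in the 37.5 nM high-number fish, and its effect differed (adjusted p = 0.00597). ODC1 was at 28.2 to 49.6 CPM and 10.6 to 70.13 CPM there, with an adjusted p of 0.00927 for the difference. FBXO32, at 6.83 to 123 CPM and 31.6 to 120 CPM, had an adjusted p of 0.0437, and KLHL24 (ENSDARG00000008275), at 46.5 to 209 CPM and 130 to 197 CPM, one of 0.00365. In all 4 genes the concentrations overlapped in the high-number fish.

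In the interaction test the effect differed between runs in 1 of 15 period and cryptochrome genes (PER2), in 0 of 15 activator and 0 of 19 output genes, and in 2 of 8 photolyase and light-induced repair genes. The share over all genes was 5.71%, and the 2 of 8 photolyase and repair genes lay above it. In lists as short as the other 3, such low counts cannot show that the clock effect was kept. PER1 (ENSDARG00000012499) had log2 fold changes of -1.52 ± 0.11 in the low-number and -1.46 ± 0.27 in the high-number fish, where its ranges of 25.4 to 81.5 CPM at 3.75 nM and 10.6 to 22.8 CPM at 37.5 nM did not overlap (adjusted p of the difference = 0.945). NR1D1 had -1.82 ± 0.32 in the high-number fish (adjusted p of the difference = 0.581) and dbpa -1.16 ± 0.28 (0.536), again without overlap there. An adjusted p above the threshold does not show that these effects were equal, and none of the 3 was called in the high-number fish. PER1, NR1D1 and dbpa were picked from the clock lists and do not stand for them. Other clock genes called in the low-number fish varied: NAMPT, NOCT and npas2 had -0.08, 0.09 and 0.10 in the high-number fish, and NR1D2 -0.96. The other PER1 gene (ENSDARG00000056885) had -1.39 ± 0.42 in the low-number and -0.69 ± 0.34 in the high-number fish. The share of all genes without overlap in the high-number fish was not determined. cry5 had a log2 fold change of 0.29 ± 0.24 and PER2 one of 0.30 ± 0.16 there, and for both the difference passed the threshold (adjusted p = 0.0474 and 0.0483).

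**Figure D5:**
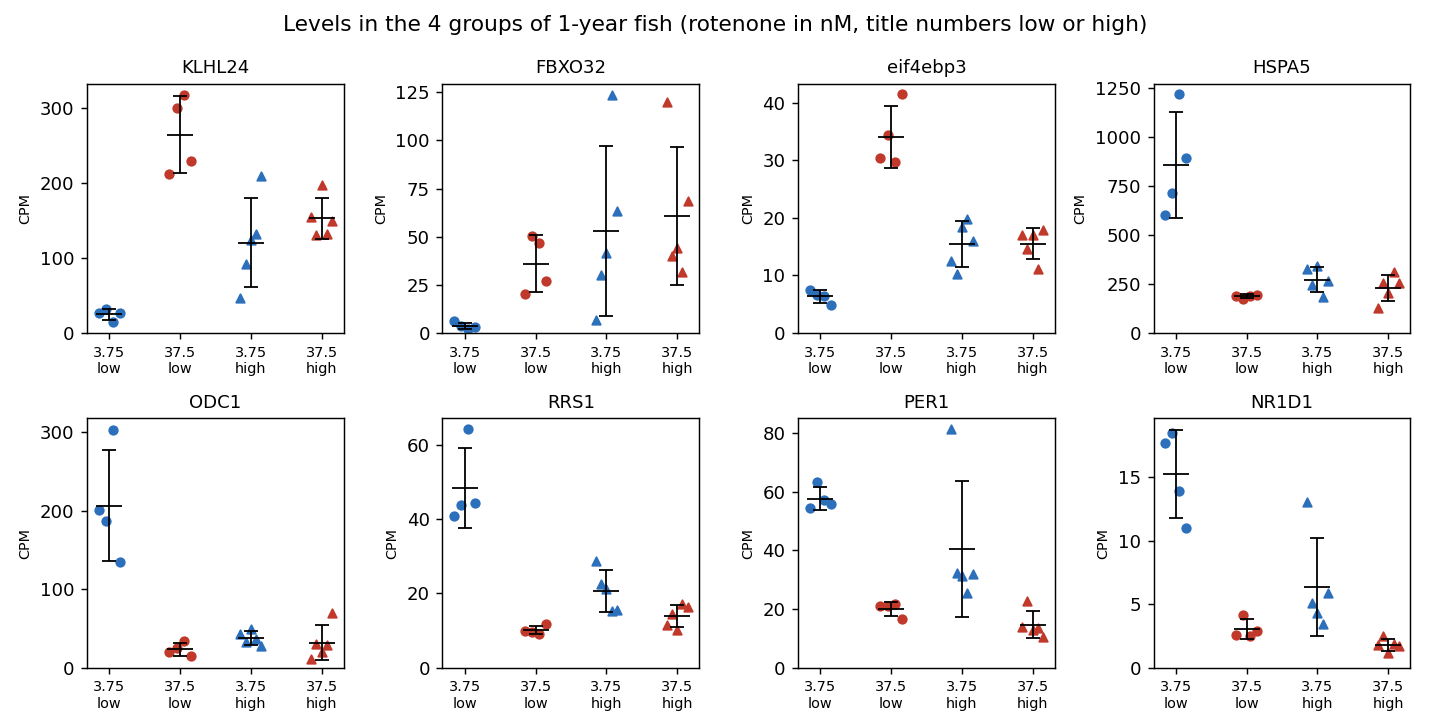
CPM of 8 genes, chosen after their values were seen, in the 4 groups of 1-year fish, each point 1 fish, with mean and SD (n = 4 for low and 5 for high numbers). For KLHL24, eif4ebp3, HSPA5, ODC1 and RRS1 the 3.75 nM low-number fish lie outside the range of the other 3 groups, while PER1 (ENSDARG00000012499) and NR1D1 are lower at 37.5 nM in both runs.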

How the data were processed

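Skin RNA was sequenced from 1 fish per library, made with a TruSeq RNA kit (v2), per the labels' protocols. Per the submitters' processing notes, the build was GRCz10 and the tools featureCounts 1.4.6-p4, STAR 2.4.1d and CASAVA 1.8.2. The authors deposited whole-number counts per Ensembl gene (32105 genes) in 1 table per concentration, which were joined by gene identifier. Their RPKM tables were not used. Symbols came from a name table (26269 genes matched); 4144 genes share a symbol and are given with their identifier.

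Counts were tested with edgeR 4.0.16 in R 4.3.3 (TMM, filterByExpr with a minimum count of 10, robust quasi-likelihood fit of the 8 fish). The difference between number runs is an interaction in a fit of all 18 1-year fish. The fits were tested on simulated data. Named genes were the 12 largest called changes per direction with a mean log2 CPM of at least 2, a proper symbol and the called direction in at least 14 of 16 pairs of fish, then called list members (at most 3 by p, all for clock and heat shock lists) and a fixed set. Members, lists and rules were chosen with earlier results of these data known. Contrasts between number runs at 1 concentration and the 10-fish fit were added after the data were seen. Alternatives included DESeq2 1.42.0, other scalings and filters, a muscle covariate and leaving out each fish. A gene named by the rule is not reported here.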

Additional observations from a re-analysis of the deposited data

Results flagged for a closer look

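Within groups of 4 fish, 12 of 230 groups (5.22%) had 1 fish far from the other 3, where chance gives about 1 in 20. At 37.5 nM, fish 1 stood apart for plekhs1.1 (2.257 log2 CPM) and SERPINH1 (ENSDARG00000019949; 4.856), fish 2 for hsp70l (0.2241) and mki67 (4.16), fish 3 for krt4 (11.91) and fish 4 for dbpa (0.8991) and PER3 (4.951). At 3.75 nM, fish 2 stood apart for znf1179 (0.8618) and SERPINH1 (ENSDARG00000019949; 4.686) and fish 3 for actc1b (13.28). Fish 4 stood apart for the mean of the mitochondrial-genome genes (11 log2 CPM) and fish 1 for the mean of the keratinocyte list (8.262).

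The concentration effect differed between the number runs, by edgeR's interaction test, in 20 of 78 genes, against 5.71% of all genes. The 78 are the 24 largest changes in the low-number fish and the genes named singly, and choosing by the low-number fish favours a difference. Over all 215 genes named by rule that were tested, it differed in 73. Given as the low-number minus the high-number log2 fold change, it was larger in the low-number fish for GRIN1 (ENSDARG00000027828; 3.472), KLHL24 (ENSDARG00000008275; 3.075), FBXO32 (3.071), FBXO25 (2.893), eif4ebp3 (2.41), HBP1 (2.22), bbc3 (2.195) and SLC25A32 (ENSDARG00000089791; 1.995). It was lower for atp1a1a.2 (-3.051), ODC1 (-2.891), MANF (-2.461), HSPA4 (ENSDARG00000004754; -2.326), eif4e1c (-2.095), ABCF2 (ENSDARG00000038785; -2.071), pprc1 (-2.053), HSPA5 (-1.944), HSPD1 (-1.322), cry5 (-1.302), krt4 (-1.148) and PER2 (-0.8578).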

How the results depend on the processing

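The 5024 called genes became 4515 to 5994 under other scalings, filters and DESeq2, and 3949 in the fit of all 18 fish. Leaving out 1 fish gave 3766 to 4701. With the muscle covariate, which differs between the groups, 2673 were called (961 higher, 1712 lower), 2419 of them shared with the 5024, and the interaction gave 1927 in place of 1140. Leaving out 1 fish gave 603 (without 37.5 nM fish 2) to 1745 (without 3.75 nM fish 5) for the interaction, with 630 without 3.75 nM fish 3, 665 without 37.5 nM fish 3 and 701 without 37.5 nM fish 8. The cause was not tested. No gene called both in the 8-fish fit and under one of these alternatives changed sign. Of 184 called named genes, 65 were not called with the muscle covariate and 25 in the 18-fish fit.

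Some genes that were not called changed sign. With the muscle covariate, BMAL1 (ENSDARG00000006791) was at -0.092, hsf1 at 0.13, PER3 at 0.039, col1a1a at 0.24, mki67 at -0.029 and actc1b at 0.028. Because actc1b belongs to the muscle list that makes up the covariate, its value there was partly fixed in advance. hsf1 was at 0.0032 among genes with a mean CPM of at least 1. Leaving out 1 fish gave -0.78 to 0.27 for nr1d2a, -0.12 to 0.088 for hsf1, -0.025 to 0.34 for MT-ND1, -0.12 to 0.030 for HSPA8 (ENSDARG00000068992) and -0.024 to 0.35 for mki67. A limma test of the deposited RPKM values was not run. No paired analysis was possible because the groups compared share no replicate numbers in the labels. With 4 fish per group, small changes can be missed.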

Other observations

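Further gene families, chosen after the values were seen and so given as a description, also differed between the low-number groups. Of 61 genes of the autophagy machinery 36 rose (59.0%, against 12.9% of all genes) and 4 fell (6.56%, against 13.8%). Their median log2 fold change was 0.68 (0.08 in the high-number fish). CALCOCO1, an autophagy receptor, was at 124, 136, 158 and 168 CPM at 37.5 nM and at 30.6, 38.62, 24.6 and 30.6 CPM at 3.75 nM, a rise of 2.23 ± 0.16 (edgeR, adjusted p = 0.000109). MAP1LC3A, which coats autophagosomes, rose by 1.36 ± 0.12. Of 62 genes of the insulin, mTORC1 and FoxO pathway 25 rose (40.3%) and 6 fell (9.68%). With the muscle covariate 14 of them rose, in the fit of all 18 fish 16, and with 1 fish left out 17 to 20. In this list akt1s1, an inhibitor of mTORC1, rose by 1.31 ± 0.12 and the transcription factor FOXO4 by 1.27 ± 0.14.

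Families of protein and nucleotide synthesis were lower. Over all genes, 13.8% fell. Of 23 cytosolic aminoacyl-tRNA synthetase genes 18 fell (78.3%) and 1 rose, and of 48 translation initiation factor genes 25 fell (52.1%) and 1 rose. Of 21 RNA polymerase I and III subunit genes 15 fell (71.4%) and 0 rose. Of 24 genes of purine and pyrimidine synthesis 12 fell, and CTPS1, the CTP synthase, fell by 2.34 ± 0.15. Of 44 genes of mitochondrial import and protein folding 30 fell (68.2%) and 1 rose, and of 73 mitochondrial ribosomal protein genes 49 fell (67.1%). Of 14 chaperonin and prefoldin genes 7 fell, with 5 under the muscle covariate and 4 without 37.5 nM fish 2. With the muscle covariate, 24 autophagy genes rose and 4 fell. Under it 17 aminoacyl-tRNA synthetase genes, 22 initiation factor genes, 13 polymerase subunit genes, 10 genes of nucleotide synthesis, 28 import genes and 30 mitochondrial ribosomal protein genes fell.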
